A study of Homo sapiens
Mus musculus with 6 samples.

Results

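The genes described here are 31 human targets of the transcription factor p53, measured in HEK cells that shared wells with mouse myoblasts. They were taken by symbol from a list of p53 targets that was drawn up with earlier results of these data known, and make up 31 of the 23855 genes of the human table. All 31 had enough reads to be tested and stood among the 13596 genes tested. The list covers feedback regulators of p53, brakes on the cell cycle, mitochondrial and receptor-driven cell death, DNA repair, and stress, redox and secreted products.

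RNA was sequenced from 6 wells of a single plate, each with 1 mouse and 1 human line. The mouse line was C2C12, a skeletal myoblast line, either unmodified (C2C12-control) or stably carrying full-length Notch1 and kept in puromycin (C2C12-Notch1). In every well it settled for 8 h and was transfected with pcDNA5 at 1.6 ug per well. Human HEK293-Flp-In cells, derived from embryonic kidney, were added 18 h after transfection and lysed with the myoblasts 6 h later. They were the HEK-control line, the HEK-Jag1WT line carrying the Notch ligand Jag1, or the HEK-Jag1Ndr line carrying Jag1 with the Ndr (Nodder) mutation. Both Jag1 lines were kept in hygromycin, which the labels do not state for HEK-control, and each is a single line. In comparisons with HEK-control, the line, its selection and its transgene therefore cannot be told apart. Between the Jag1 lines, the Nodder mutation cannot be told apart from other differences of line. Each combination of lines had 1 well, so each HEK line had 2 wells, 1 beside each C2C12 line. Separate cultures of a line are not named in the labels, so the p-values speak only to the scatter among the 6 wells.

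p53 is a DNA-binding protein that is stabilised after DNA damage and other stresses and then switches on genes that halt the cell cycle, repair DNA or kill the cell. One of its targets, MDM2, marks p53 for degradation and closes a negative feedback loop, and MDM4 restrains p53 beside it. HEK293 cells carry adenoviral early region genes, whose products bind p53 and hold back its activity.

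The human table held between 4081452 and 10292878 gene reads per well, with HEK-control beside C2C12-Notch1 the deepest. Human reads were 47.3% to 52.8% of all gene reads beside C2C12-control and 63.5% to 70.4% beside C2C12-Notch1. Levels are given as RPKM, a read number scaled to gene length and to the well's reads of that species. For some genes, among them BBC3 and FDXR, RPKM and counts scaled to depth order the wells differently. HEK markers had a median of 36.3 RPKM in the human table against 5.02 for their orthologues in the mouse table, though NEFM and PAX2 were low in the human table, at 0.618 and 1.16 RPKM. For 4 of the 10 HEK markers the mouse mean was above the human one: VIM at 2850 against 244 RPKM, NEFL at 116 against 96.0, NEFM at 41.1 against 0.618 and CDH2 at 25.8 against 25.6. Of 12 C2C12 markers, the median was 0.388 RPKM in the human table and 57.5 in the mouse table. MYOG and MYF5 were at 0 in the human table in all 6 wells, and DES averaged 0.209 RPKM against 476 for mouse Des. The summed human level of these 12 markers was 28.1 to 29.3 RPKM in HEK-control, 39.0 to 40.5 in HEK-Jag1WT and 24.1 to 27.7 in HEK-Jag1Ndr wells, most of it TNNT1, whose mean of 24.4 RPKM was close to the 25.8 of mouse Tnnt1 and so did not mark the myoblasts; its part in the results was not tested. In such bulk wells, fewer cells of a type and less RNA per cell cannot be told apart.

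The members spanned a wide range of levels. PMAIP1 stood far above the rest, at 1112 to 2569.8 RPKM, and was among the 12 highest genes of the human table in every well. CDKN1A lay between 168 and 237 RPKM, whereas CCNG2, TP53INP1 and PLK3 stayed below 6 RPKM. Between its lowest and highest well a member changed by a median factor of 1.745, from 1.18 for CCNG1 to 97.8 for EDA2R. The lowest value fell in a HEK-Jag1WT well for 24 of 31 members. The highest value fell in a HEK-Jag1Ndr well for 15 members, in a HEK-control well for 12 and in a HEK-Jag1WT well for 4. The same counts were not taken over all genes tested, so they do not set the members apart. Between the partner wells of 1 HEK line, the median absolute log2 difference of the members was 0.14 in HEK-control, 0.18 in HEK-Jag1WT and 0.14 in HEK-Jag1Ndr.

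**Figure D1:**
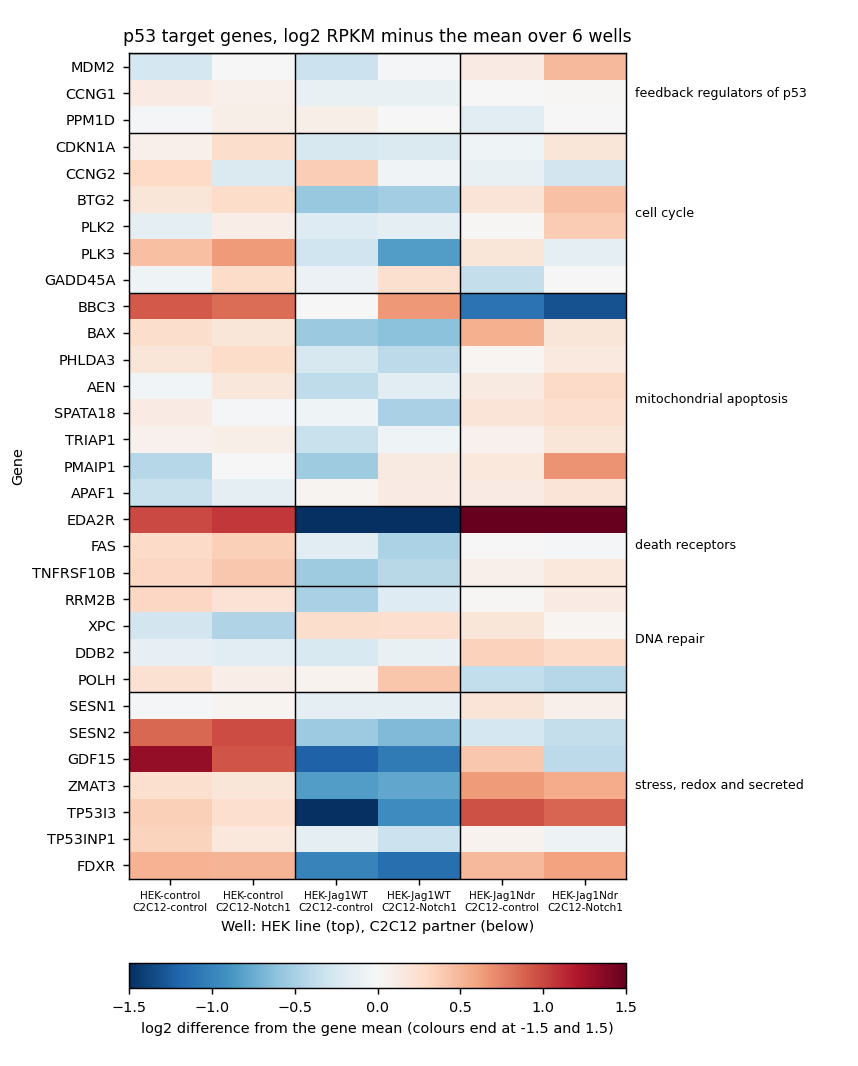
Level of each of the 31 p53 target genes in each of the 6 wells, as log2 RPKM minus the gene's mean over the wells (colour), with genes in rows grouped by role and wells in columns by HEK line and C2C12 partner. EDA2R, TP53I3, FDXR, ZMAT3 and GDF15 are low in both HEK-Jag1WT wells, and EDA2R, TP53I3 and ZMAT3 are highest in both HEK-Jag1Ndr wells.

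HEK-Jag1WT cells held less of most p53 target mRNAs than HEK-control cells. A gene was called when edgeR's adjusted p was under 0.05 in an additive model of HEK line and C2C12 line. In HEK-Jag1WT against HEK-control, 19 of 31 members were called lower and 2 higher, and 10 were not called. Of all 13596 genes tested, 29.4% were called lower and 24.9% higher, 54.3% in all. The median log2 change of the members was -0.36, against -0.03 over all genes tested. Among the 19, EDA2R, GDF15, TP53I3, SESN2, FDXR, PLK3 and ZMAT3 fell by more than 2-fold, 7 of 31 members, whereas 5.38% of all genes did. XPC and APAF1 were the 2 members that rose. By counts per well scaled to depth, both HEK-Jag1WT wells lay below both HEK-control wells for 20 members, where 38.9% of all genes showed this, and above for 2 members, where 34.6% did.

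HEK-Jag1Ndr cells showed members on both sides of HEK-control. In that comparison, 9 of 31 members were called higher and 8 lower, and 14 were not called; of all genes tested, 22.6% were higher and 23.5% lower, 46.1% in all. The members' median log2 change was 0.06, against -0.01 over all genes, and it changed sign to -0.03 without HEK-control beside C2C12-Notch1 and to -0.01 without HEK-Jag1Ndr beside C2C12-Notch1. The count called and its split were thus near those of all genes. Over 2-fold, EDA2R was higher, where 2.88% of all genes were, and BBC3, SESN2 and GDF15 were lower, where 2.81% were. Both HEK-Jag1Ndr wells lay above both HEK-control wells for 12 members, against 32.7% of all genes, and below for 10, against 34.1%. This comparison uses the same HEK-control wells as the one before it.

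The 2 Jag1 lines, both kept in hygromycin, also differed from each other. Each is a single line, so the mutation and other differences of line cannot be told apart here. In HEK-Jag1Ndr against HEK-Jag1WT, 23 of 31 members were called higher and 3 lower, and 5 were not called. Of all genes, 29.2% were higher and 28.5% lower, 57.7% in all, and the medians were 0.41 for the members and -0.01 for all genes. EDA2R, TP53I3, FDXR, ZMAT3 and GDF15 were over 2-fold higher, as were 6.44% of all genes, and BBC3 alone among the members was over 2-fold lower, as were 3.92%. Without HEK-Jag1WT beside C2C12-Notch1, 15 members were called higher in place of 23. The HEK-Jag1Ndr wells both lay above the HEK-Jag1WT wells for 24 members, against 36.1% of all genes, and below for 4, against 37%. This comparison shares its wells with both comparisons against HEK-control. CCNG2 and PPM1D were called in none of the 3.

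**Figure D2:**
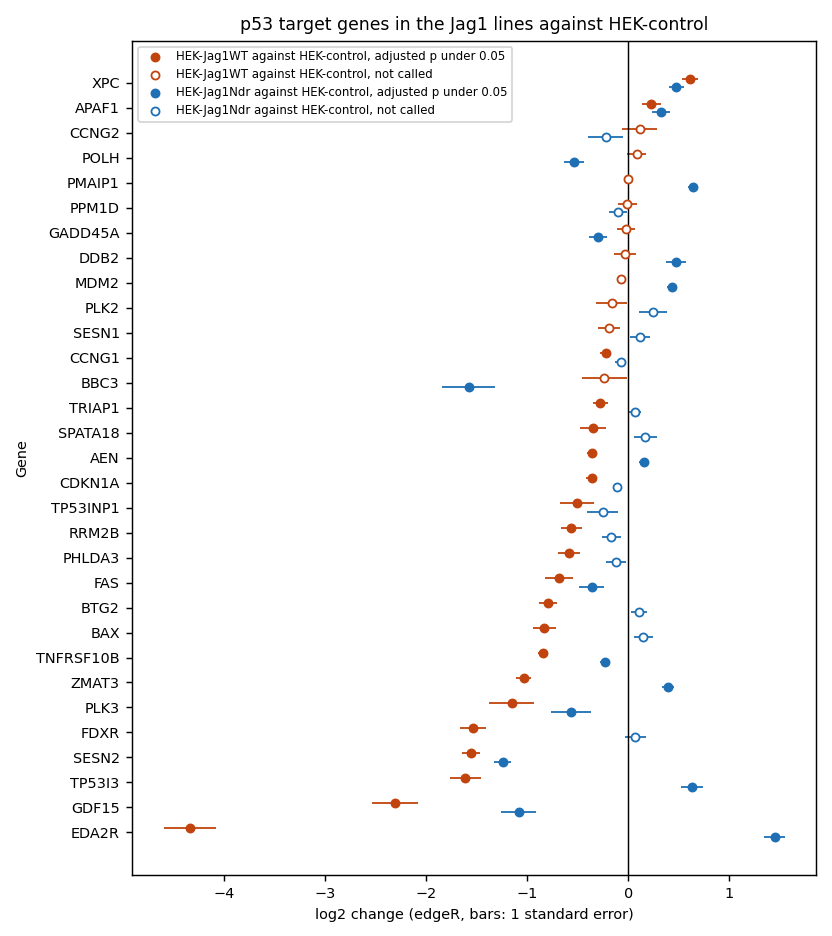
log2 change of each of the 31 p53 target genes in HEK-Jag1WT (orange) and HEK-Jag1Ndr (blue) against HEK-control, from edgeR over 6 wells, with bars of 1 standard error and filled points for an adjusted p under 0.05. Genes are ordered by the HEK-Jag1WT change, from XPC at 0.61 to EDA2R at -4.34, and the 2 sets of points share the HEK-control wells.

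Among the feedback regulators, MDM2, the ubiquitin ligase that degrades p53, was higher in HEK-Jag1Ndr than in either other line. It measured 67.0 and 81.1 RPKM in the HEK-control wells, 64.3 and 79.1 in the HEK-Jag1WT wells and 87.7 and 112 in the HEK-Jag1Ndr wells, the well beside C2C12-control first, as in all values below. Both HEK-Jag1Ndr wells were above all other wells, and the HEK-control and HEK-Jag1WT wells overlapped. The log2 change was 0.43 (SE 0.05, adjusted p 4.672e-12) against HEK-control and 0.50 (SE 0.05, adjusted p 1.473e-14) against HEK-Jag1WT. In a model without the C2C12 line, these calls had adjusted p 0.237 and 0.152. CCNG1, cyclin G1, which brings a phosphatase to MDM2, moved little, with 118 and 114 RPKM in HEK-control, 101 and 100.3 in HEK-Jag1WT and 109 and 110.3 in HEK-Jag1Ndr. It fell by 0.23 on the log2 scale in HEK-Jag1WT (SE 0.06, adjusted p 0.0004865), a call lost without either HEK-Jag1WT well, at -0.19 and -0.20. PPM1D, the phosphatase that switches off the damage response, stayed between 10.9 and 12.9 RPKM in all 6 wells.

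Among the cell cycle genes, BTG2, an antiproliferative cofactor, was lower in HEK-Jag1WT, with 18.1 and 18.7 RPKM against 30.6 and 32.5 in HEK-control and 30.9 and 36.6 in HEK-Jag1Ndr. No HEK-Jag1WT well overlapped a well of another line. The log2 change against HEK-control was -0.79 (SE 0.09, adjusted p 1.893e-11). CDKN1A, which encodes the cyclin-dependent kinase inhibitor p21 and is the best-known arrest gene of p53, shifted less, from 208 and 237 RPKM in HEK-control to 168 and 170.3 in HEK-Jag1WT and 188 and 224 in HEK-Jag1Ndr. It was 0.36 lower on the log2 scale in HEK-Jag1WT than in HEK-control (log2 change -0.36, SE 0.05, adjusted p 6.889e-09). Its HEK-Jag1Ndr and HEK-control wells overlapped and were not called. PLK3, a stress-activated kinase, was at 4.68 and 5.31 RPKM in HEK-control, 2.77 and 1.92 in HEK-Jag1WT and 3.88 and 3.12 in HEK-Jag1Ndr. PLK3 had 44 and 125 reads in HEK-control, 33 and 24 in HEK-Jag1WT and 63 and 48 in HEK-Jag1Ndr. Its log2 change was -1.16 in HEK-Jag1WT (SE 0.23, adjusted p 1.611e-05) and -0.57 in HEK-Jag1Ndr (SE 0.20, adjusted p 0.01331). The HEK-Jag1Ndr call of PLK3 was lost without HEK-control beside C2C12-Notch1 (-0.26) or HEK-Jag1Ndr beside C2C12-Notch1 (-0.45).

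GADD45A, a growth arrest gene, was lower in HEK-Jag1Ndr, at 33.7 and 43.2 RPKM, than beside the same partner in HEK-control, at 41.5 and 52.5, or in HEK-Jag1WT, at 40.8 and 51.0. The ranges of the 3 lines overlapped, and each well beside C2C12-Notch1 was higher than its counterpart beside C2C12-control. Its log2 change of -0.30 against HEK-control (SE 0.09, adjusted p 0.004709) was not called without HEK-control beside C2C12-Notch1 (-0.22) or HEK-Jag1Ndr beside C2C12-Notch1 (-0.24). PLK2, a polo-like kinase, ranged from 5.63 to 8.40 RPKM and CCNG2, a cyclin tied to arrest, from 1.89 to 2.95 RPKM. Neither was called in a comparison with HEK-control.

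Among the genes of mitochondrial apoptosis, BAX, BBC3 and PMAIP1 each took another order across the HEK lines. BAX, which permeabilises the outer mitochondrial membrane, was at 49.3 and 46.5 RPKM in HEK-control, 27.8 and 26.7 in HEK-Jag1WT and 59.1 and 46.6 in HEK-Jag1Ndr. The HEK-Jag1WT wells stood below all others, with a log2 change of -0.83 against HEK-control (SE 0.12, adjusted p 9.466e-09) and a change of 0.98 for HEK-Jag1Ndr against HEK-Jag1WT (SE 0.11, adjusted p 2.648e-11). BBC3 encodes PUMA, a BH3-only activator of BAX, and it was low in HEK-Jag1Ndr. It measured 6.91 and 6.52 RPKM in HEK-control, 3.62 and 5.73 in HEK-Jag1WT and 1.69 and 1.48 in HEK-Jag1Ndr, so both HEK-Jag1Ndr wells were the lowest of the 6. The log2 change in HEK-Jag1Ndr was -1.58 (SE 0.26, adjusted p 7.928e-07) against HEK-control and -1.35 (SE 0.28, adjusted p 4.095e-05) against HEK-Jag1WT. PMAIP1 encodes NOXA, another BH3-only protein, and it was high in HEK-Jag1Ndr.

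PMAIP1 measured 1196 and 1598 RPKM in HEK-control, 1112 and 1759 in HEK-Jag1WT and 1794 and 2569.8 in HEK-Jag1Ndr. It took from 0.213% of the human reads, in HEK-Jag1WT beside C2C12-control, to 0.493%, in HEK-Jag1Ndr beside C2C12-Notch1, where it had the highest RPKM of any human gene. Both HEK-Jag1Ndr wells were above all wells of the other lines. The log2 change was 0.64 (SE 0.04, adjusted p 5.955e-19) against HEK-control and 0.64 (SE 0.04, adjusted p 1.924e-19) against HEK-Jag1WT. In a model without the C2C12 line these calls had adjusted p 0.315 and 0.286.

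The other mitochondrial and execution genes shifted less. AEN, an apoptosis-enhancing nuclease, was at 175 and 203 RPKM in HEK-control, 138 and 161 in HEK-Jag1WT and 198 and 220.25 in HEK-Jag1Ndr, with a log2 change of -0.36 in HEK-Jag1WT (SE 0.05, adjusted p 2.47e-09) and 0.15 in HEK-Jag1Ndr (SE 0.05, adjusted p 0.005573). The HEK-Jag1Ndr wells of AEN overlapped its HEK-control wells. The HEK-Jag1Ndr call of AEN was lost without HEK-Jag1Ndr beside C2C12-control (0.14). In an edgeR model without the C2C12 line it had adjusted p 0.311. PHLDA3, an inhibitor of AKT, was at 31.3 and 33.4 RPKM in HEK-control and 23.4 and 20.9 in HEK-Jag1WT, and fell by 0.59 on the log2 scale (SE 0.11, adjusted p 5.436e-06). APAF1, the scaffold of the apoptosome, was the 1 gene of this role that rose in HEK-Jag1WT, from 7.70 and 8.77 to 10.1 and 10.6 RPKM. Its log2 change was 0.23 in HEK-Jag1WT (SE 0.09, adjusted p 0.03454). It was not called without HEK-control beside C2C12-control (0.21) or beside C2C12-Notch1 (0.30), or without HEK-Jag1WT beside C2C12-control (0.20). APAF1 was also higher in HEK-Jag1Ndr, at 10.6 and 11.2 RPKM, a log2 change of 0.32 against HEK-control (edgeR adjusted p 0.0024). The HEK-Jag1Ndr call of APAF1 was lost without HEK-Jag1Ndr beside C2C12-Notch1 (0.31). TRIAP1, a small inhibitor of cell death, and SPATA18, a regulator of mitochondrial quality, were called lower in HEK-Jag1WT at -0.28 and -0.35 on the log2 scale. TRIAP1 lost its call without HEK-Jag1WT beside C2C12-control (-0.16). SPATA18 lost its call without either HEK-control well (-0.31 and -0.36) or HEK-Jag1WT beside C2C12-Notch1 (-0.11).

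EDA2R, a receptor of the tumour necrosis factor family that binds the ligand ectodysplasin A2, differed most between the lines. It measured 7.24 and 7.62 RPKM in HEK-control, 0.488 and 0.220 in HEK-Jag1WT and 18.7 and 21.5 in HEK-Jag1Ndr. These levels rest on 100 and 267 reads, 9 and 4 reads, and 454 and 488 reads. The 3 lines did not overlap, and the HEK-Jag1WT wells were near the level at which single reads matter. The log2 change was -4.34 (SE 0.26, adjusted p 1.349e-22) in HEK-Jag1WT and 1.45 (SE 0.11, adjusted p 1.628e-18) in HEK-Jag1Ndr against HEK-control. HEK-Jag1Ndr against HEK-Jag1WT gave 5.79 (SE 0.21, adjusted p 2.562e-34). On the log2(RPKM + 1) scale, which understates changes at low levels, limma gave EDA2R -2.65 in HEK-Jag1WT against HEK-control. The mouse gene Eda2r was at 18.8 and 20.4 RPKM in the 2 HEK-Jag1WT wells, within its range of 16.2 to 23.1 over all 6 wells.

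The other death receptors were lower in both Jag1 lines than in HEK-control. TNFRSF10B, the TRAIL receptor DR5, measured 132 and 141 RPKM in HEK-control, 73.6 and 79.9 in HEK-Jag1WT and 112 and 119 in HEK-Jag1Ndr, with no overlap between lines. It changed by -0.85 on the log2 scale (SE 0.05, adjusted p 5.294e-23) in HEK-Jag1WT and -0.23 (SE 0.05, adjusted p 4.604e-05) in HEK-Jag1Ndr. FAS, the receptor of Fas ligand, was at 10.7 and 11.2 RPKM in HEK-control, 7.82 and 6.26 in HEK-Jag1WT and 8.74 and 8.51 in HEK-Jag1Ndr. Its modelled change was -0.68 in HEK-Jag1WT (SE 0.14, adjusted p 2.272e-05) and -0.36 in HEK-Jag1Ndr (SE 0.12, adjusted p 0.01286). ACTA2, which overlaps FAS, was called lower in HEK-Jag1WT as well (-1.12, adjusted p 3.555e-11), and RHOBTB2, which overlaps TNFRSF10B, was lower in HEK-Jag1WT (-0.46, adjusted p 0.002103) and HEK-Jag1Ndr (-0.28, adjusted p 0.04764). The HEK-Jag1Ndr call of FAS was lost without either HEK-Jag1Ndr well (-0.32 and -0.40) or HEK-control beside C2C12-Notch1 (-0.24).

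**Figure D3:**
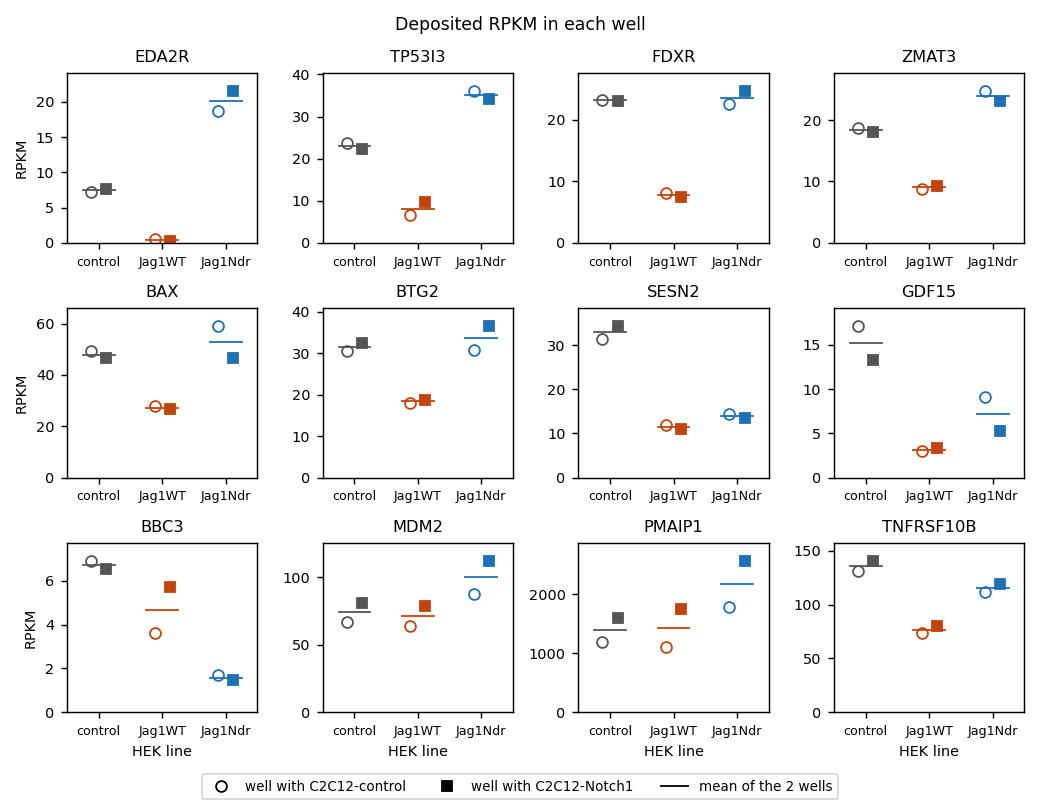
Deposited RPKM of 12 p53 target genes in each well (linear axes from 0), by HEK line, with open circles for wells beside C2C12-control, filled squares for wells beside C2C12-Notch1 and a line at the mean of the 2 wells. EDA2R is at 0.220 and 0.488 RPKM in HEK-Jag1WT and 18.7 and 21.5 in HEK-Jag1Ndr, while BBC3 is lowest in HEK-Jag1Ndr, at 1.48 and 1.69 RPKM.

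The DNA repair genes did not move together. XPC, the damage sensor of nucleotide excision repair, was higher in both Jag1 lines, with 31.4 and 31.1 RPKM in HEK-Jag1WT and 29.5 and 26.6 in HEK-Jag1Ndr against 21.5 and 19.1 in HEK-control. Its log2 change was 0.61 (SE 0.08, adjusted p 6.779e-10) and 0.47 (SE 0.08, adjusted p 3.567e-07), and neither Jag1 line overlapped HEK-control. DDB2, which recognises ultraviolet lesions, was higher in HEK-Jag1Ndr, at 29.1 and 27.8 RPKM against 20.9 and 20.3 in HEK-control, a log2 change of 0.47 (SE 0.10, adjusted p 6.657e-05). POLH, the translesion polymerase eta, was lower in HEK-Jag1Ndr, at 5.35 and 5.10 RPKM against 8.08 and 7.40, a log2 change of -0.54 (SE 0.10, adjusted p 9.992e-06). Its 4 nearest tested neighbours were called lower there too, POLR1C at -0.59, XPO5 at -0.58, GTPBP2 at -1.33 and MAD2L1BP at -0.29. GTPBP2 overlaps POLH, and the libraries do not mark strand, so the reads of this pair cannot be told apart by strand. RRM2B, a ribonucleotide reductase subunit that supplies nucleotides for repair, was at 13.4 and 12.5 RPKM in HEK-control, 7.66 and 9.42 in HEK-Jag1WT and 10.9 and 11.7 in HEK-Jag1Ndr. Only its HEK-Jag1WT change against HEK-control was called of these 2 comparisons, at -0.56 (SE 0.10, adjusted p 4.922e-06).

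Of the 7 stress, redox and secreted products, 6 were called lower in HEK-Jag1WT than in HEK-control, where 29.4% of all genes were, with a median log2 change of -1.54. TP53I3, a quinone oxidoreductase, was at 23.8 and 22.2 RPKM in HEK-control, 6.62 and 9.66 in HEK-Jag1WT and 36.0 and 34.2 in HEK-Jag1Ndr. The 3 lines did not overlap, and the log2 change was -1.61 (SE 0.16, adjusted p 8.44e-14) in HEK-Jag1WT and 0.63 (SE 0.11, adjusted p 1.92e-06) in HEK-Jag1Ndr. ZMAT3, a zinc finger protein that binds RNA, had the same order, with 18.7 and 18.0 RPKM in HEK-control, 8.84 and 9.21 in HEK-Jag1WT and 24.7 and 23.2 in HEK-Jag1Ndr. For the 2 Jag1 lines the log2 changes were -1.04 (SE 0.07, adjusted p 1.573e-19) and 0.39 (SE 0.06, adjusted p 2.703e-07). FDXR, the mitochondrial ferredoxin reductase, was at 8.07 and 7.37 RPKM in HEK-Jag1WT, a log2 change of -1.54 (SE 0.13, adjusted p 1.177e-15). By RPKM its HEK-control wells, at 23.2 and 23.0, lay between its HEK-Jag1Ndr wells, at 22.5 and 24.6. By counts scaled to depth, both HEK-Jag1Ndr wells of FDXR lay above both HEK-control wells. FDXR was not called in HEK-Jag1Ndr against HEK-control.

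SESN2 and GDF15 are known as targets of both p53 and the stress factor ATF4, and they were lower in both Jag1 lines. SESN2, sestrin 2, which restrains mTORC1 signalling, measured 31.5 and 34.3 RPKM in HEK-control, 11.9 and 11.0 in HEK-Jag1WT and 14.4 and 13.5 in HEK-Jag1Ndr. Its log2 change was -1.56 (SE 0.09, adjusted p 2.822e-23) in HEK-Jag1WT and -1.24 (SE 0.08, adjusted p 2.989e-20) in HEK-Jag1Ndr. GDF15, a secreted stress cytokine, measured 17.1 and 13.3 RPKM in HEK-control, 2.96 and 3.31 in HEK-Jag1WT and 9.14 and 5.25 in HEK-Jag1Ndr. GDF15 had 83 and 162 reads in HEK-control, 18 and 21 in HEK-Jag1WT and 77 and 42 in HEK-Jag1Ndr. No lines overlapped, with a log2 change of -2.31 (SE 0.23, adjusted p 2.213e-13) in HEK-Jag1WT and -1.09 (SE 0.18, adjusted p 5.851e-07) in HEK-Jag1Ndr. SESN1, the sestrin most closely tied to p53, stayed between 12.4 and 15.8 RPKM and was not called against HEK-control in either line. TP53INP1, an autophagy and stress protein, was at 3.20 and 2.83 RPKM in HEK-control and 2.29 and 2.03 in HEK-Jag1WT, a log2 change of -0.51 (SE 0.17, adjusted p 0.008862). That call was lost without either HEK-Jag1WT well (-0.48 and -0.47) or HEK-control beside C2C12-Notch1 (-0.54).

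Between the 2 Jag1 lines, 12 member calls were lost when 1 well was left out. Leaving out HEK-Jag1WT beside C2C12-Notch1 ended the calls of CDKN1A (log2 change 0.18 without it), FAS (0.12), PLK2 (0.24), PLK3 (0.34), PHLDA3 (0.30), GADD45A (-0.32), CCNG1 (0.13), SESN2 (0.21) and SPATA18 (0.31). Leaving out HEK-Jag1WT beside C2C12-control ended those of SESN1 (0.19), TRIAP1 (0.22), RRM2B (0.21), GADD45A (-0.29) and CCNG1 (0.13). Without HEK-Jag1Ndr beside C2C12-control, SESN1 (0.19), FAS (0.35), PLK3 (0.45) and SESN2 (0.24) lost their calls. Without HEK-Jag1Ndr beside C2C12-Notch1, FAS (0.27), PLK2 (0.28), PLK3 (0.68), GADD45A (-0.24), CCNG1 (0.10) and SPATA18 (0.34) did. The over 2-fold differences of EDA2R, TP53I3, FDXR, ZMAT3, GDF15 and BBC3 kept their calls in all 14 alternatives run.

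The response of each HEK line could also be read beside each C2C12 line, from single wells and without a test. Beside both partners, HEK-Jag1WT was below HEK-control for 22 of 31 members and above it for 3, and the sign differed for BBC3, DDB2, POLH, GADD45A, PPM1D and PMAIP1. The median log2 ratio of the members was -0.42 beside C2C12-control and -0.38 beside C2C12-Notch1. For HEK-Jag1Ndr against HEK-control, 16 members were above and 15 below beside both partners, with none of opposite sign. Signs were not counted over all genes tested, so this agreement between partners was not shown to be particular to the members. The EDA2R ratio of HEK-Jag1WT to HEK-control was -3.84 on the log2 scale (95% counting interval -5.01 to -2.86) beside C2C12-control and -5.14 (-7.03 to -3.77) beside C2C12-Notch1. These intervals cover counting error only, and they overlap.

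**Figure D4:**
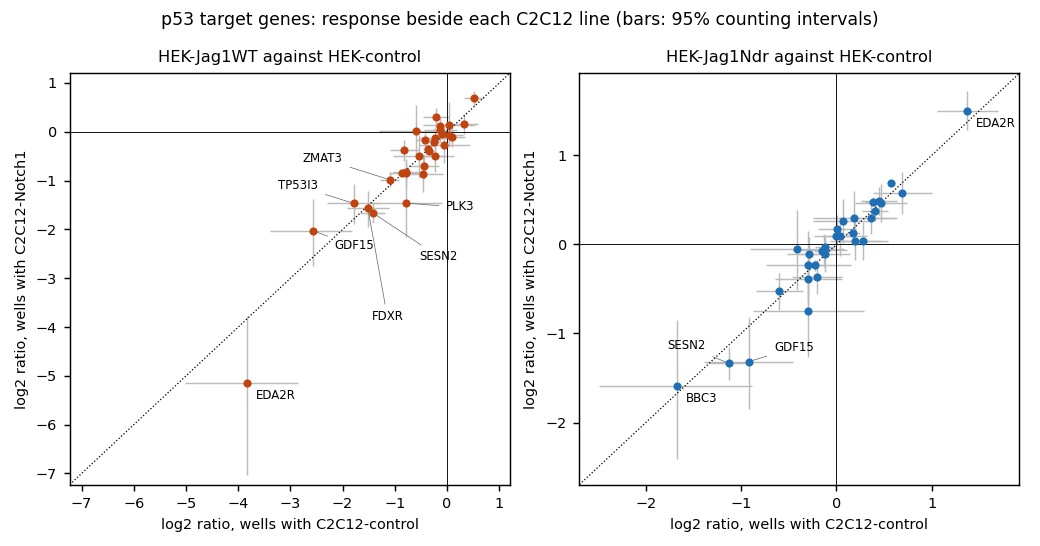
log2 ratio of HEK-Jag1WT (left) and HEK-Jag1Ndr (right) to HEK-control for the 31 p53 target genes, in wells beside C2C12-control (x axis) and C2C12-Notch1 (y axis), with 95% counting intervals and a dotted line of equality. EDA2R lies farthest from 0, at -3.84 and -5.14 in HEK-Jag1WT, and BBC3, SESN2 and GDF15 lie lowest in HEK-Jag1Ndr.

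The C2C12 partner made less difference to the members than the HEK line. HEK cells beside C2C12-Notch1 were compared with HEK cells beside C2C12-control, 3 wells against 3. C2C12-Notch1 is 1 line kept in puromycin, so its transgene, its selection and other differences of line cannot be told apart. The human share of reads also differed, at 63.5% to 70.4% beside C2C12-Notch1 and 47.3% to 52.8% beside C2C12-control. The part of that share in the comparison was not tested. Of 31 members, 6 were called higher, 0 lower and 25 not called, and the members' median log2 change was 0.05, against 0.00 over all genes. Of all genes tested, 3.07% were called higher and 1.77% lower, 658 genes or 4.84% in all. At an unadjusted p under 0.05, edgeR counted CCNG2 and GDF15 as lower, and DESeq2 called 0 members lower by either p. Of the 658 calls, 63.4% were higher, a share that was 41.8% with library size as the only scaling.

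PMAIP1 had the largest called change among members, 0.56 on the log2 scale (SE 0.04, adjusted p 1.59e-19). Within the HEK lines its ratio between partner wells was 0.44 in HEK-control (95% counting interval 0.41 to 0.47), 0.70 in HEK-Jag1WT (0.66 to 0.73) and 0.56 in HEK-Jag1Ndr (0.53 to 0.58). GADD45A was 0.39 higher (SE 0.08, adjusted p 0.000423) and was the 1 member whose 3 wells beside C2C12-Notch1 were all above the 3 beside C2C12-control, as 1.65% of all genes were. MDM2 was 0.34 higher (SE 0.04, adjusted p 3.641e-10), AEN 0.23 (SE 0.04, adjusted p 2.647e-05) and CDKN1A 0.23 (SE 0.04, adjusted p 0.000103), each in 3 of 3 HEK lines. TNFRSF10B was 0.13 higher (SE 0.04, adjusted p 0.03885), and this call was lost with library size as the only scaling and without any 1 of the 4 wells of the Jag1 lines (0.13 in each case, adjusted p 0.262 to 0.417).

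Of 27 member orthologues tested in the mouse table, 15 had all 3 C2C12-Notch1 wells above the 3 C2C12-control wells and 6 had them all below, against 29.7% and 28.5% of 11154 mouse genes. The 15 were the orthologues of 5 of the 6 human members called higher by partner and of 10 members not called. Mouse Mdm2 was at 63.7 to 66.7 RPKM in C2C12-control wells and 86.6 to 94.3 in C2C12-Notch1 wells, Aen at 30.3 to 31.3 and 49.1 to 53.2, and Tnfrsf10b at 24.4 to 27.4 and 34.1 to 39.6. Mouse Cdkn1a was at 216 to 235 and 241 to 295 RPKM, and Gadd45a at 27.7 to 29.5 and 33.0 to 34.6. Among the 10, mouse Bax was at 88.3 to 108 and 130.4 to 155, Ccng1 at 98.0 to 115.4 and 161 to 179, Zmat3 at 14.2 to 16.1 and 21.7 to 25.1, and Sesn2 at 9.37 to 12.5 and 17.5 to 21.3 RPKM. The part of mouse reads in the human values was not tested. Mouse Pmaip1 was at 24.2 to 29.9 RPKM in C2C12-control wells and 21.8 to 25.5 in C2C12-Notch1 wells, and so did not share the direction of human PMAIP1. In a model without the HEK line, edgeR called 0 genes, with 20 higher and 32 lower at an unadjusted p under 0.05. limma on log2(RPKM + 1) called 25 genes, 1 of them a member, and DESeq2 called 69, 4 of them members.

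MDM4, the relative of MDM2 that masks p53, stayed between 9.03 and 12.1 RPKM. It was called higher in HEK-Jag1WT than in HEK-control (0.18, SE 0.08, adjusted p 0.0427) and lower in HEK-Jag1Ndr than in HEK-Jag1WT (-0.26, SE 0.08, adjusted p 0.003716), calls held in 8 and 9 of 14 alternatives. Both MDM4 calls were lost without HEK-Jag1WT beside C2C12-Notch1, where the values were 0.07 and -0.14, and the first also without HEK-control beside C2C12-Notch1 (0.10) and the second without HEK-Jag1Ndr beside C2C12-Notch1 (-0.21).

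Of 19 tested genes of a list of regulators of p53 activity, MDM4 among them, 14 were called higher and 2 lower in HEK-Jag1WT than in HEK-control, with a median log2 change of 0.38, where 24.9% of all genes were higher and 29.4% lower. TP73, which encodes the related factor p73, rose from 16.4 and 15.4 to 29.6 and 28.8 RPKM (log2 change 0.87, SE 0.07, adjusted p 8.461e-16), and CHEK1, a checkpoint kinase, by 0.55 (SE 0.07, adjusted p 1.492e-09). USP7, which removes ubiquitin from MDM2 and p53, was lower in both Jag1 lines (-0.51 in each, adjusted p 1.243e-09 and 5.6e-10). In HEK-Jag1Ndr 5 of the 19 were higher and 3 lower than in HEK-control, with a median of 0.04; the share higher was near the 22.6% of all genes, and 23.5% of all genes were lower. In HEK-Jag1Ndr against HEK-Jag1WT 2 were higher and 11 lower, with a median of -0.17, against 29.2% and 28.5% of all genes.

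A second list held 31 further p53 targets, of which 29 were tested. Against HEK-control, 13 were lower and 3 higher in HEK-Jag1WT, with a median of -0.07, and 8 were lower and 6 higher in HEK-Jag1Ndr, with a median of -0.01. Of all genes, 29.4% were lower and 24.9% higher in HEK-Jag1WT, and 23.5% lower and 22.6% higher in HEK-Jag1Ndr, so the HEK-Jag1Ndr counts were near those of all genes. In HEK-Jag1Ndr against HEK-Jag1WT 12 were higher and 3 lower, with a median of 0.17, against 29.2% and 28.5% of all genes. TNFRSF10D, a decoy receptor of TRAIL, was at 151 and 156 RPKM in HEK-control, 48.6 and 45.5 in HEK-Jag1WT and 66.5 and 62.8 in HEK-Jag1Ndr. The changes were -1.74 (SE 0.06, adjusted p 1.418e-36) and -1.25 (SE 0.05, adjusted p 2.345e-30). E2F7, a repressor of cell cycle genes, went the other way in HEK-Jag1WT (0.66, SE 0.06, adjusted p 6.435e-15). By partner, edgeR and DESeq2 called 0 of these 29 genes, and at an unadjusted p under 0.05 edgeR counted 4 higher and 1, PIDD, lower.

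Mitotic genes that p53 signalling is known to lower were called higher in both Jag1 lines than in HEK-control. In HEK-Jag1WT 15 of 16 were higher and 1, MYBL2, lower, with a median of 0.49, and MYBL2 was not called without HEK-Jag1WT beside C2C12-Notch1 (-0.14). In HEK-Jag1Ndr 14 of 16 were higher and 0 lower, with a median of 0.38; there edgeR also counted 14 and 0 at an unadjusted p under 0.05, and DESeq2 called 10 and 0. The shares of all genes called higher and lower were 24.9% and 29.4% in HEK-Jag1WT and 22.6% and 23.5% in HEK-Jag1Ndr. MKI67, the proliferation marker Ki-67, was at 46.9 and 52.4 RPKM in HEK-control, 79.1 and 93.6 in HEK-Jag1WT and 63.5 and 65.6 in HEK-Jag1Ndr, and CENPF, a kinetochore protein, was 0.87 higher in HEK-Jag1WT (SE 0.05, adjusted p 3.441e-22). In HEK-Jag1Ndr against HEK-Jag1WT, 3 mitotic genes were higher and 8 lower, with a median of -0.16, where 29.2% of all genes were higher and 28.5% lower.

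The list for the integrated stress response, the ATF4 pathway that shares SESN2 and GDF15 with p53 as known targets, was lower in both Jag1 lines. In HEK-Jag1WT 11 of 15 genes were lower and 3 higher than in HEK-control, with a median of -1.34, and in HEK-Jag1Ndr 9 were lower and 3 higher, with a median of -0.67. Of all genes, 29.4% were lower and 24.9% higher in HEK-Jag1WT, and 23.5% lower and 22.6% higher in HEK-Jag1Ndr. TRIB3, a pseudokinase induced by ATF4, was at 97.6 and 87.2 RPKM in HEK-control, 26.8 and 27.0 in HEK-Jag1WT and 43.3 and 33.6 in HEK-Jag1Ndr. SLC7A5, an amino acid transporter, was 2.15 lower on the log2 scale in HEK-Jag1WT (log2 change -2.15, SE 0.06, adjusted p 2.028e-41) and 0.67 lower in HEK-Jag1Ndr (-0.67, SE 0.05, adjusted p 2.808e-18). ATF4 mRNA went the other way in HEK-Jag1WT, from 336 and 343 to 494 and 499 RPKM (0.52, SE 0.05, adjusted p 1.505e-13). In HEK-Jag1Ndr against HEK-Jag1WT 7 of the 15 were higher and 3 lower, with a median of 0.42, against 29.2% and 28.5% of all genes. These gene lists share the HEK lines and wells with the members, and the part of the stress response in the members' values was not tested.

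**Figure D5:**
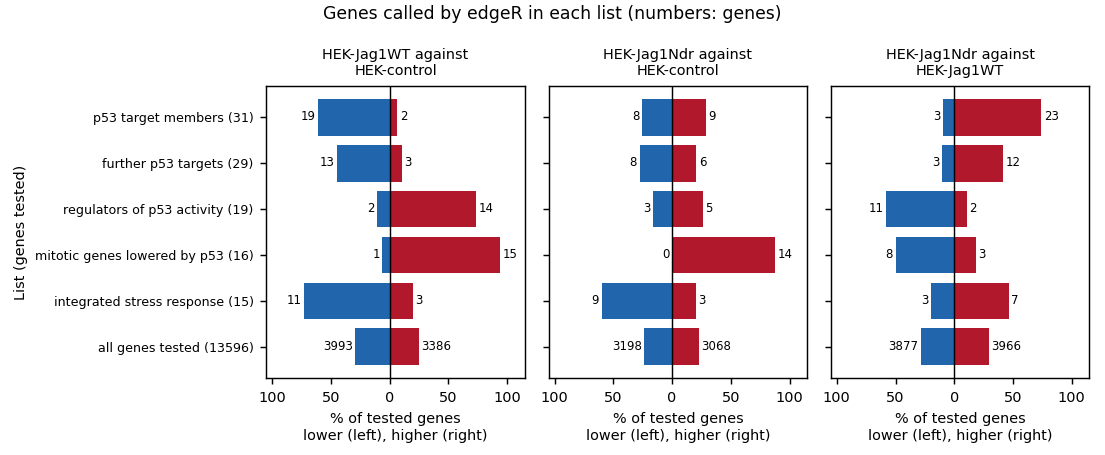
Share of the tested genes of each list called lower (left, blue) and higher (right, red) by edgeR in the 3 comparisons of HEK lines, in percent, with the number of genes at each bar and all 13596 genes tested in the last row. The 31 p53 target genes show 19 lower and 2 higher in HEK-Jag1WT against HEK-control, and 23 higher and 3 lower in HEK-Jag1Ndr against HEK-Jag1WT.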

How the data were processed

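Polyadenylated RNA of 6 wells was made into TruSeq RNA v2 libraries, which do not mark strand, per the labels. The submitters' processing notes name STAR, hg19 and mm9, without a version; for the counter and the separation of species, the method is not given in the sources used here. Per the file headers, the deposited human table gives a whole-number count and an RPKM value for each gene in each well. RPKM gave levels and counts gave the tests. Of 24303 human entries, 448 exact repeats were left out.

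Human counts were fitted with edgeR 4.0.16 in R 4.3.3 (TMM, filterByExpr, robust quasi-likelihood test, Benjamini-Hochberg adjustment over 13596 genes at 0.05). The model was additive over all 6 wells, with a HEK-line and a C2C12-line term and 2 residual degrees of freedom. An effect particular to 1 pair of lines thus counted as spread. The common biological coefficient of variation was 3.48%. Standard errors (SE) were derived as the absolute log2 change over the square root of edgeR's F statistic. Alternatives were RLE and library-size scaling, no filter on low counts, DESeq2 1.42.0, limma 3.58.1 on log2(RPKM + 1) and log2(RPKM + 0.1), a model without the other species' line, the 4 wells compared, and each well left out.

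All 31 members and MDM4 were named. Some genes are not reported here. Fold changes were printed for members past the threshold, though not for every call. Of every other list, counts, the median and up to 4 genes with the smallest p per comparison could be named. The members and lists were chosen with earlier results of these data known. All 31 symbols matched RefSeq genes of another build, so no coordinates are given.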

Additional observations from a re-analysis of the deposited data

Results flagged for a closer look

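PMAIP1, which encodes NOXA, differed in direction between the partners in the comparison of HEK-Jag1WT with HEK-control. Beside C2C12-control the log2 ratio was -0.135 (95% counting interval -0.17 to -0.10), and beside C2C12-Notch1 it was 0.121 (0.09 to 0.15). Each ratio rests on 1 well against 1 well, both intervals cover counting error only, and the difference between the ratios was not tested. The modelled log2 change of PMAIP1 in this comparison was 0.00 and was not called.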

How the results depend on the processing

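Of 70 calls of members, 38 were kept in every alternative, and no member's call changed direction in any of them; the values of calls lost by leaving out a well stand beside the genes above. DESeq2 called 4267 genes in HEK-Jag1WT against HEK-control, 2995 in HEK-Jag1Ndr against HEK-control and 4866 in HEK-Jag1Ndr against HEK-Jag1WT, where edgeR called 7379, 6266 and 7843. For HEK-Jag1WT against HEK-control, DESeq2 and the model without the C2C12 line called 1 member higher, leaving out a well gave 1 to 2, and the members' median was -0.394 with limma on log2(RPKM + 0.1). For HEK-Jag1Ndr against HEK-control, DESeq2 and the model without the C2C12 line called 5 members lower, and the median was 0.0245 and 0.0254 with limma at pseudocounts of 1 and 0.1. Leaving out wells moved that median between -0.0313 (without HEK-control beside C2C12-Notch1) and 0.0797, and it was -0.0149 without HEK-Jag1Ndr beside C2C12-Notch1. Between the 2 Jag1 lines, DESeq2 and the model without the C2C12 line each called 16 members higher and 2 lower, in place of 23 and 3. For HEK-Jag1Ndr against HEK-Jag1WT, leaving out a well gave 15 to 23 members called higher and a median of 0.345 to 0.467. By partner, the count of genes called was 69 with DESeq2, 25 and 27 with limma at pseudocounts of 1 and 0.1, 0 without the HEK line in the model (edgeR; 20 higher and 32 lower at an unadjusted p under 0.05), and 176 to 1428 with a well left out. It was highest without HEK-control beside C2C12-Notch1 (1428) or C2C12-control (1413), and lowest without the wells of the Jag1 lines, at 199 and 176 beside C2C12-control and 200 and 178 beside C2C12-Notch1 for HEK-Jag1WT and HEK-Jag1Ndr. Members called higher by partner were 1 with either limma fit, 0 without the HEK line and 5 to 8 with a well left out. The members' median by partner was 0.0149 with library size only, 0.0214 with either limma fit, 0.0698 without the HEK line and 0.0205 to 0.0603 with a well left out. The cause of these differences was not tested. The labels give no replicate numbers; wells were matched by the C2C12 line, which stood in the model as a term, and the model without that line is the unmatched fit. With 4 to 9 reads of EDA2R in the HEK-Jag1WT wells, the size of its change is less firm than its direction.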

Other observations

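In RefSeq gene order on the GRCh38.p14 assembly, LAS1L, MSN and YIPF6 are among the tested genes nearest to EDA2R on the X chromosome; they were looked at after the values of EDA2R were seen. In HEK-Jag1WT against HEK-control, MSN was called lower (log2 change -0.73, adjusted p 7.196e-13), YIPF6 was called higher (0.35, adjusted p 1.121e-06) and LAS1L was not called (-0.01). In HEK-Jag1Ndr against HEK-control, YIPF6 was called higher (0.22, adjusted p 0.001821), and MSN (0.09) and LAS1L (0.10) were not called.

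The 2 nearest tested genes on either side were taken for every member, without genes not reported here. Of the neighbours of called members, 21 of 83 were called in the member's direction and 25 in the other in HEK-Jag1WT against HEK-control. The counts were 20 and 10 of 67 in HEK-Jag1Ndr against HEK-control, and 40 and 28 of 103 in HEK-Jag1Ndr against HEK-Jag1WT. Of all genes tested, 24.9% were called higher and 29.4% lower in HEK-Jag1WT against HEK-control. The shares were 22.6% and 23.5% in HEK-Jag1Ndr against HEK-control, and 29.2% and 28.5% in HEK-Jag1Ndr against HEK-Jag1WT. POLH had all its neighbours called in its own direction in both comparisons of HEK-Jag1Ndr, and GADD45A in that with HEK-Jag1WT. Around CDKN1A, which was not called in HEK-Jag1Ndr against HEK-control, STK38 (-0.54), SRSF3 (-0.54), PPIL1 (-0.90) and C6orf89 (-0.51) were all called lower there. Near FAS, LIPA (-1.39), ACTA2 (-1.12) and IFIT2 (-0.62) were called lower and STAMBPL1 (0.66) higher in HEK-Jag1WT against HEK-control. Near GADD45A, in HEK-Jag1Ndr against HEK-control, GNG12 (-0.42) and WLS (-0.73) were called lower, IL12RB2 (0.35) higher and SERBP1 (-0.05) was not called. These genes were named after their values were seen.

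In the same assembly 17 of the 31 members overlap another RefSeq gene, and 14, including EDA2R, FDXR, ZMAT3, SESN2, BAX and PMAIP1, overlap none. The libraries do not mark strand, so reads of overlapping genes cannot be told apart by strand. For 9 members an overlapping gene was tested. It was called in the member's own direction for FAS and TNFRSF10B in HEK-Jag1WT against HEK-control, for TNFRSF10B and POLH in HEK-Jag1Ndr against HEK-control, and for MDM2 (with CPM, the carboxypeptidase M gene, at 0.70), FAS and POLH in HEK-Jag1Ndr against HEK-Jag1WT.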
